A study of Mus musculus with 18 samples.

Results

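The subject is the set of 10 transcripts of the mouse mitochondrial genome mt-Nd1, mt-Nd2, mt-Nd4, mt-Nd5, mt-Co1, mt-Co3, mt-Cytb, mt-Atp6, mt-Rnr1 and mt-Rnr2, matched by symbol to Ensembl identifiers among 47729 genes in 8 RNA count files. All 10 had a row, but mt-Co3 and mt-Atp6 were listed at 0 in every library, so 8 members could be tested. The RNA came from bulk cortex of mouse embryos at E15.5. Every embryo was of the genotype BAF155 cKO, a conditional knockout of a core subunit of the BAF chromatin remodelling complex, so no group carried the intact gene. 4 libraries were labelled Vehicle and 4 were labelled TSA (trichostatin A), an inhibitor of histone deacetylases. The title of the study concerns H3 acetylation, basal progenitors and Trnp1, and does not name the mitochondrial genome. The Cre line, the dose and timing of TSA, and whether libraries came from separate animals were not stated in the labels. The p-values therefore reflect the spread among these 8 libraries, which may be technical.

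The mitochondrial genome is a small circle that is transcribed from both strands into long transcripts, which are then cut at the tRNAs into rRNAs, mRNAs and tRNAs. Its mRNAs encode core subunits of respiratory complexes I, III and IV and of the ATP synthase, whose other subunits come from nuclear genes. Its rRNAs form the RNA core of the mitochondrial ribosome. Most of its mRNAs and rRNAs carry short poly(A) tails, and mt-Nd6, the only mRNA read from the other strand, is an exception. Mitochondrial DNA is not packaged with histones.

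Total counts ranged from 6733415 in TSA 1 to 20400727 in TSA 3, and from 12200426 to 15600340 in Vehicle. Replicates differed beyond sampling noise in every pair (chi-square per degree of freedom from 3.08 to 35.7), so each library counted once. Cortical markers were present, with 10 of 10 neuronal and 10 of 10 progenitor genes tested. In edgeR (adjusted p under 0.05, TSA against Vehicle) 8 of the neuronal genes rose and 0 fell, 0 also at an unadjusted p under 0.05. Of the progenitor genes 5 rose and 2 fell, with log2 fold changes from −1.54 to 2.09. Over all tested genes 15.4% were called higher and 17.6% lower. The part of these markers in the members' levels was not tested. The summed level of the neuronal markers lay between 5996 and 8017 CPM (counts per 1000000 on TMM-scaled totals, the scale of all levels given here) in Vehicle and between 8594 and 9333 CPM in TSA. In bulk tissue, fewer cells of a type and less RNA per cell cannot be told apart.

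The members at 0 sat in one stretch of the genome. Coordinates are those of the RefSeq table for GRCm38.p6, the assembly called mm10. From mt-Ts1 at position 6870 to the end of mt-Nd4l at position 10173, all 11 genes were at or near 0, with at most 1 read summed over the 8 libraries. The stretch holds mt-Co2 and mt-Co3, subunits of complex IV, mt-Atp8 and mt-Atp6, subunits of the ATP synthase, and mt-Nd3 and mt-Nd4l, subunits of complex I, as well as 5 tRNA genes. The mt-Atp6 gene (ENSMUSG00000064357) spans 7927 to 8607 and mt-Co3 (ENSMUSG00000064358) spans 8607 to 9390. A count of 0 allows at most 3 counts per library, or 0.148 to 0.457 CPM, for counting error only, which does not cover reads lost in alignment or counting.

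Genes on both sides of that stretch had counts in every library. The mt-Co1 gene, which ends at 6872, had 24553 to 104168 counts per library, and mt-Nd4, which starts at 10167, had 7592 to 31603. The same RefSeq table lists 2 pseudogenes on chromosome 1, looked up by symbol, that have the lengths of genes in the stretch. Gm10925 (24613971 to 24614651) is 681 bases long, as is mt-Atp6, and carries mt-Atp6 among its synonyms. Gm10222 (24612404 to 24612700) is 297 bases long, as is mt-Nd4l. The starts of the pair lie 1567 bases apart, against 1566 bases between the ends of mt-Atp6 and mt-Nd4l. Gm10925 had 0 to 7 counts and Gm10222 had 0 in each library. Gm28438, another listed nuclear copy of mitochondrial DNA, had 14 to 92 counts per library and was not matched to a member. Reads that a nuclear copy shares with the mitochondrial gene can be dropped or split by the counting, and the part of this in the zeros was not tested. No level is therefore given for mt-Co3 or mt-Atp6, and values of mt-Co1 and mt-Nd4, the neighbours of the stretch, are less certain than those of the other members.

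**Figure D1:**
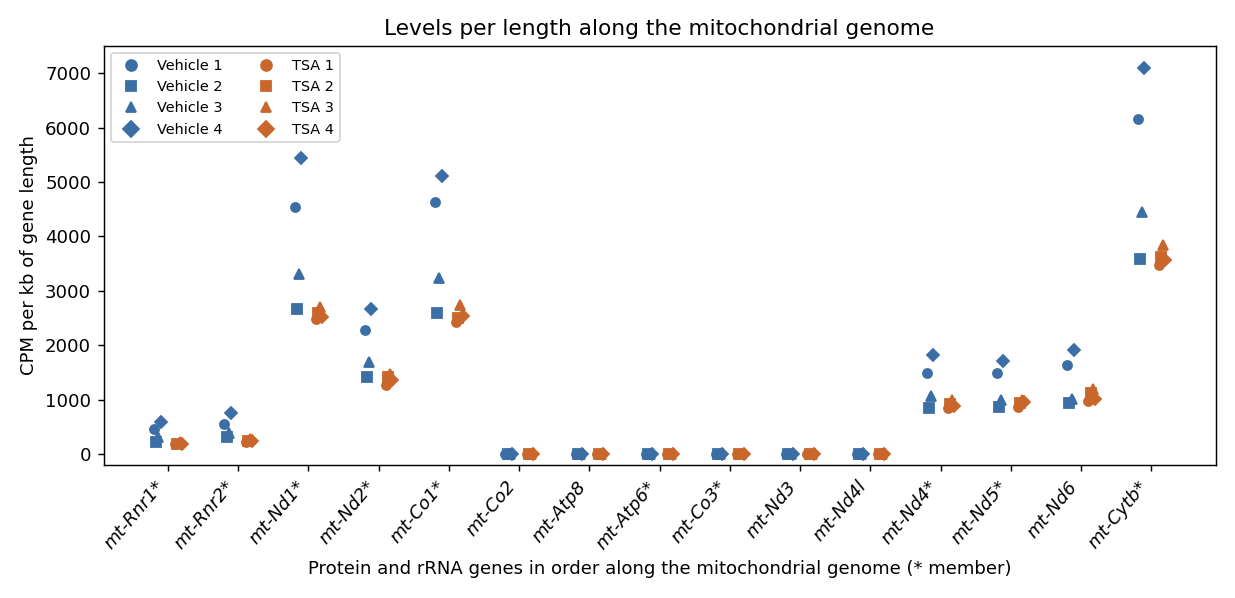
Level per kb of gene length (vertical axis, CPM per kb) of the protein and rRNA genes in their order along the mitochondrial genome (horizontal axis, members starred), 1 point per library, blue for Vehicle and orange for TSA. The 6 genes from mt-Co2 to mt-Nd4l lie at 0, mt-Cytb is the highest in every library, and the rRNAs are the lowest of the genes with counts.

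Per kb of gene length, mt-Cytb, which encodes cytochrome b of complex III, had the highest level, at 5325 ± 1591 CPM per kb in Vehicle and 3626 ± 160 in TSA (SD, n = 4 each). It stood above the next gene in 8 of 8 libraries. Next came mt-Nd1, a membrane subunit of complex I (3991 ± 1244 and 2574 ± 95.1 CPM per kb), and mt-Co1, the catalytic subunit of complex IV (3893 ± 1183 and 2547 ± 133 CPM per kb). The order of these neighbours varied, with mt-Nd1 above mt-Co1 in 5 of 8 libraries. The complex I gene mt-Nd2 followed (2015 ± 571 and 1380 ± 89.0 CPM per kb), below both in 8 of 8 libraries.

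Lower down, mt-Nd4 (1304 ± 436 and 915 ± 68.2 CPM per kb) and mt-Nd5 (1264 ± 404 and 942 ± 54.0 CPM per kb), both membrane subunits of complex I, did not differ beyond their spread, mt-Nd4 being the higher in 4 of 8 libraries. The 6 counted mRNAs spanned a factor of 3.84 to 4.52 from highest to lowest within a library. The large-subunit rRNA mt-Rnr2 (499 ± 195 and 249 ± 19.3 CPM per kb) and the small-subunit rRNA mt-Rnr1 (398 ± 166 and 194 ± 13.2 CPM per kb) were below every counted mRNA in 8 of 8 libraries. The libraries were made with a TruSeq RNA kit, per the labels' protocols, which by its design selects polyadenylated RNA. The part of that selection in the low rRNA level, and in rRNA differences between groups, was not tested.

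TSA libraries had less mitochondrial RNA than the mean Vehicle library, most clearly for the rRNAs. Both rRNAs were at about 0.5 of their Vehicle level (TSA mean over Vehicle mean 0.488 for mt-Rnr1 and 0.50 for mt-Rnr2), and mt-Nd1, mt-Nd2, mt-Co1 and mt-Cytb fell to between 0.645 and 0.685. In all, 6 of the 8 tested members were called lower by edgeR's quasi-likelihood test (adjusted p under 0.05 over 15000 genes), and 0 were called higher (0 also at an unadjusted p under 0.05, with DESeq2 and with limma-voom). Over all tested genes 17.6% were called lower, 15.4% higher and 33.0% in either direction. All 8 log2 fold changes were below 0, as were 51.1% over all genes, with a median of −0.58 against −0.01 over all tested genes. The groups did not overlap in 2 of the 8, the rRNAs, where 17.4% of all tested genes did not overlap with TSA lower and 32.3% in either direction. Without Vehicle 1 and Vehicle 4, a pair chosen by the members' own level, 2 members were called, the rRNAs. In that fit 15.9% of all tested genes were called lower.

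The 10 members together took 2.76, 1.55, 1.94 and 3.25% of all counts in Vehicle 1 to 4. They took 1.43, 1.52, 1.65 and 1.5% in TSA 1 to 4. Vehicle 1 and Vehicle 4 stood above every other library, Vehicle 3 was next, and Vehicle 2 lay inside the TSA range. The means were 2.38 ± 0.773% and 1.53 ± 0.089% (SD, n = 4 each), and the largest 95% Wilson interval of a single library was 0.020 percentage points wide, for counting error only. The spread was 32.5% of the mean in Vehicle and 5.84% in TSA.

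**Figure D2:**
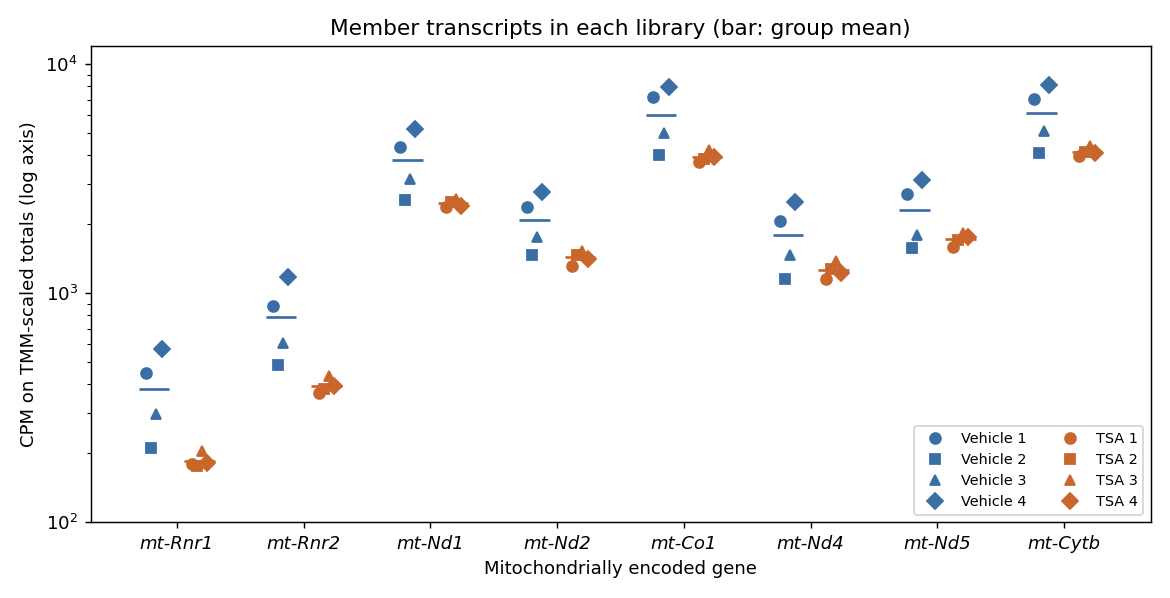
CPM on a log axis of the 8 members with counts (horizontal axis, in genome order), 1 point per library with a bar at the group mean, blue for Vehicle and orange for TSA. For both rRNAs all 4 Vehicle points lie above all 4 TSA points, while for every mRNA Vehicle 2 lies within or beside the TSA range and Vehicle 1 and 4 lie above it.

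The large-subunit rRNA mt-Rnr2 (ENSMUSG00000064339, positions 1094 to 2675) stood at 879, 487, 609 and 1181 CPM across Vehicle 1 to 4. Across TSA 1 to 4 it stood at 365, 383, 437 and 392 CPM. The lowest Vehicle library, Vehicle 2, was above the highest TSA library, TSA 3. On the log2 scale the difference was −1.0 ± 0.22 (SE, 4 libraries a group) with an edgeR adjusted p of 0.00502.

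The small-subunit rRNA mt-Rnr1 (ENSMUSG00000064337, positions 70 to 1024) stood at 446, 210, 296 and 568 CPM across Vehicle 1 to 4. Across TSA 1 to 4 it stood at 180, 177, 204 and 181 CPM. All Vehicle values were again above all TSA values, with Vehicle 2 and TSA 3 closest to each other. On the log2 scale the difference was −1.03 ± 0.25, with an edgeR adjusted p of 0.00946.

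Of the complex I genes, mt-Nd1 (ENSMUSG00000064341, positions 2751 to 3707) stood at 4347, 2556, 3163 and 5214 CPM across Vehicle 1 to 4. Across TSA 1 to 4 it stood at 2378, 2488, 2581 and 2407 CPM. Vehicle 2 lay below TSA 3, and the other Vehicle libraries lay above all TSA libraries. It fell by 0.63 ± 0.18 on the log2 scale (SE, edgeR adjusted p = 0.0152). The neighbouring mt-Nd2 (ENSMUSG00000064345, positions 3914 to 4951) fell by 0.55 ± 0.17 on the log2 scale (edgeR adjusted p = 0.0224), from 1463 to 2776 CPM in Vehicle to 1317 to 1532 CPM in TSA.

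The other complex I members missed the threshold. For mt-Nd4 (ENSMUSG00000064363, positions 10167 to 11544) the log2 fold change was −0.51 ± 0.19 (edgeR adjusted p = 0.0559), and the Vehicle libraries stood at 2058, 1155, 1473 and 2502 CPM against 1157 to 1381 CPM for TSA. For mt-Nd5 (ENSMUSG00000064367, positions 11742 to 13565) it was −0.42 ± 0.18 (edgeR adjusted p = 0.0931), and the Vehicle libraries stood at 2711, 1582, 1799 and 3131 CPM against 1592 to 1826 CPM for TSA. In both genes Vehicle 2 was below every TSA library, and Vehicle 1 and 4 were above every TSA library.

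The complex IV gene mt-Co1 (ENSMUSG00000064351, positions 5328 to 6872) stood at 7162, 3995, 4992 and 7908 CPM across Vehicle 1 to 4 and at 3742, 3859, 4223 and 3914 CPM across TSA 1 to 4. It fell by 0.61 ± 0.18 on the log2 scale (edgeR adjusted p = 0.0189). The complex III gene mt-Cytb (ENSMUSG00000064370, positions 14145 to 15288) stood at 7054, 4108, 5096 and 8111 CPM across Vehicle 1 to 4 and at 3969, 4152, 4397 and 4073 CPM across TSA 1 to 4, and fell by 0.55 ± 0.18 on the log2 scale (edgeR adjusted p = 0.0281). In both, Vehicle 2 lay inside the TSA range and the other Vehicle libraries lay above it.

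The members moved together from library to library. Over the 8 libraries, the Pearson r of log2 CPM between pairs of the 8 counted members ran from 0.931 to 0.998 (28 pairs), and from 0.977 to 0.999 for deviations from the group means. These genes share the library, its depth and its scaling, so the values are a description.

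Without Vehicle 1 and Vehicle 4, the libraries richest in mitochondrial counts in earlier results of these data, 2 members remained called, mt-Rnr1 (log2 fold change −0.45 ± 0.12, edgeR adjusted p = 0.0177) and mt-Rnr2 (−0.48 ± 0.10, adjusted p = 0.00477), where 15.9% of all tested genes were called lower. The values of mt-Nd1, mt-Nd2, mt-Co1 and mt-Cytb then lay between −0.22 and −0.15, that of mt-Nd4 was −0.060 and that of mt-Nd5 was 0.022. That pair was chosen by the members' own level, so smaller differences without it follow in part from the choice. With single libraries left out, 3 members were called without Vehicle 1, with a median log2 fold change of −0.50, and 3 without Vehicle 4 (−0.42). There were 8 called without Vehicle 2 (−0.73) and 8 without Vehicle 3 (−0.66). Without TSA 1, 2, 3 or 4, the called members numbered 2, 3, 6 and 4, while the median stayed between −0.61 and −0.55. Both rRNAs were called each time, and 13.8 to 19.0% of all tested genes were called lower in these fits.

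**Figure D3:**
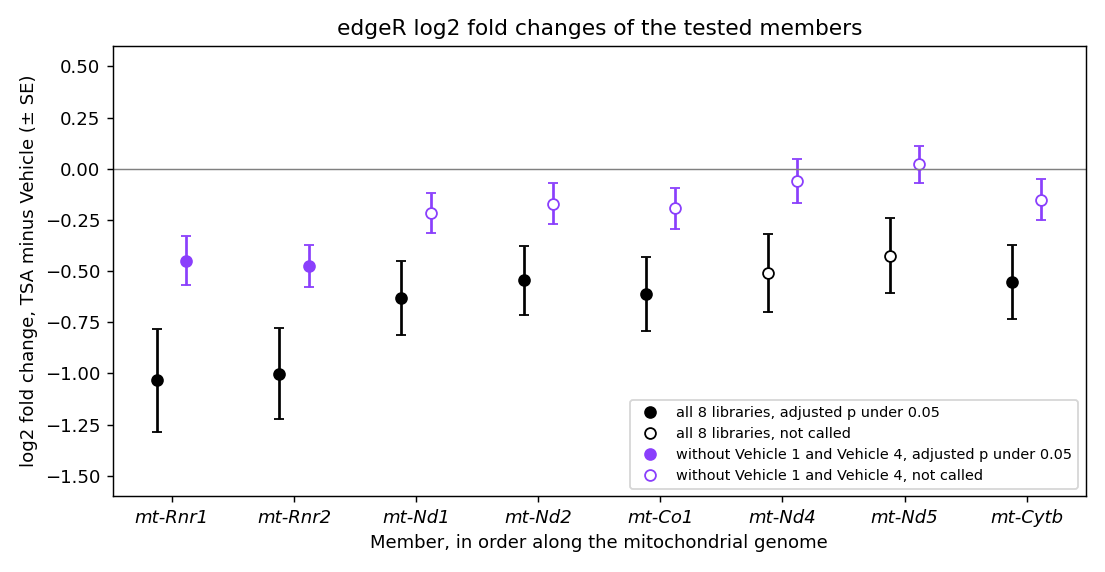
edgeR log2 fold change of TSA minus Vehicle (vertical axis, error bars 1 SE) of the 8 tested members in genome order, with all 8 libraries in black and without Vehicle 1 and Vehicle 4 in violet, filled where the adjusted p is under 0.05. With all libraries the 2 rRNAs lie lowest, near −1, and without the pair only the rRNAs stay filled.

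The libraries were spread over 3 sequencing lanes named in the file names, with Vehicle 1, TSA 1 and TSA 2 in lane 1, Vehicle 2 and TSA 3 in lane 2, and Vehicle 3, Vehicle 4 and TSA 4 in lane 3. Within lane 1 the mt-Rnr2 difference was −1.23, within lane 2 it was −0.16 and within lane 3 it was −1.11 (log2 CPM, TSA minus Vehicle). The same differences of mt-Co1 were −0.91, 0.080 and −0.68. Within lane 2 the 6 counted mRNAs differed by 0.014 to 0.26, higher in TSA. That lane has 1 library a group, the lowest Vehicle and the highest TSA library in the members' share, so its values have no spread behind them. With lane as a covariate 6 members were called.

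The make-up of the mitochondrial counts was read on measures that do not use library scaling. They still rest on the RNA that passed the kit's selection, and the part of that selection in them was not tested. Counts of the 2 rRNAs were 0.0515, 0.0469, 0.0495 and 0.0590 of the counts of the member mRNAs in Vehicle 1 to 4. They were 0.0385, 0.0374, 0.0402 and 0.0387 of them in TSA 1 to 4. All 4 TSA libraries lay below all 4 Vehicle libraries, Vehicle 2 and 3 included. The log2 ratio was lower by a mean difference of −0.41, with a 97.1% interval from the exact test of −0.66 to −0.22. A two-sided exact permutation test over samples gave p = 0.0286, the smallest that 4 against 4 allows, and 0.0571 after Benjamini-Hochberg adjustment over 2 ratios, which missed the threshold.

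Among the members' counts, mt-Rnr1 took 1.59 ± 0.193% in Vehicle and 1.19 ± 0.044% in TSA (SD, n = 4 each), and mt-Rnr2 took 3.33 ± 0.294% and 2.53 ± 0.076%. The share of mt-Nd5 was higher in every TSA library, at 10, 10.2, 9.38 and 9.97% in Vehicle 1 to 4 and 10.8, 11.0, 11.0 and 11.4% in TSA 1 to 4. The other 5 counted mRNAs overlapped between groups on this measure. Shares of a fixed total depend on each other, so lower shares of some members raise those of others. Among the mRNAs alone, the shares of mt-Nd1 (17.3 ± 0.280% in Vehicle, 16.5 ± 0.290% in TSA) and mt-Co1 (27.2 ± 0.524% and 26.3 ± 0.332%) lay lower in TSA without overlap and that of mt-Nd5 lay higher (10.4 ± 0.375% and 11.5 ± 0.263%).

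**Figure D4:**
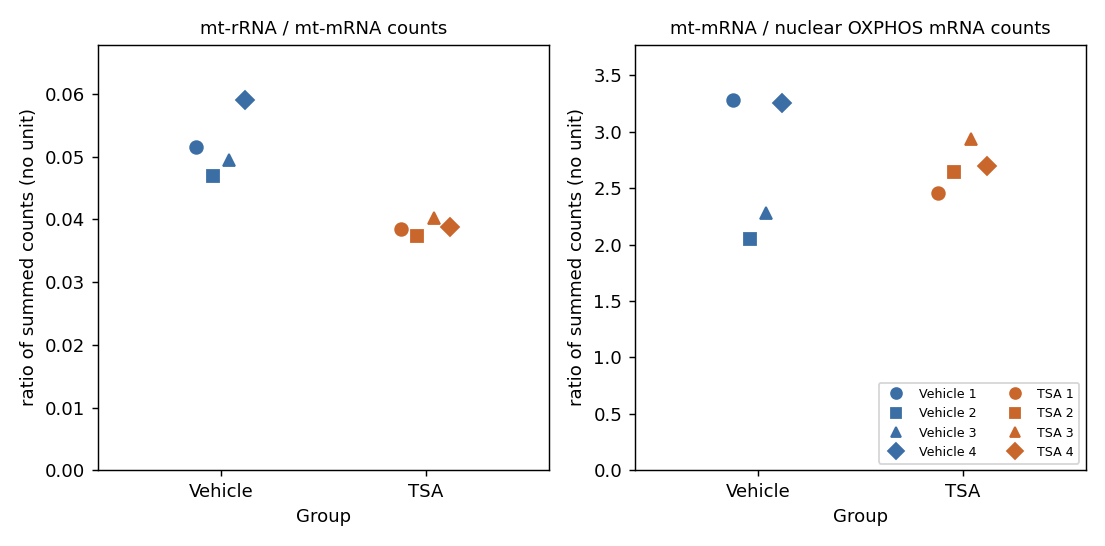
Left, counts of the 2 mitochondrial rRNAs divided by those of the member mRNAs; right, counts of the member mRNAs divided by those of 72 nuclear genes of complexes I, III, IV and the ATP synthase, 1 point per library. On the left all TSA points (0.0374 to 0.0402) lie below all Vehicle points (0.0469 to 0.0590), and on the right the TSA points lie between the Vehicle points.

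Other genes of the mitochondrial genome were read beside the members. The complex I gene mt-Nd6 (positions 13552 to 14070) stood at 851, 492, 524 and 989 CPM across Vehicle 1 to 4 and at 505 to 622 CPM across TSA, and its log2 difference was −0.35 ± 0.19 (edgeR adjusted p = 0.19). It overlaps the end of mt-Nd5 on the opposite strand, and because the kit does not mark strand, reads from its own strand and from the opposite one cannot be told apart. Of 22 tRNA genes, 9 passed the filter and 4 were called lower, where 17.6% of all tested genes were called lower. Among the 4 was mt-Tl1, which lies between mt-Rnr2 and mt-Nd1 (15.8 ± 2.81 CPM in Vehicle, 9.80 ± 0.975 CPM in TSA, log2 fold change −0.68 ± 0.15, edgeR adjusted p = 0.00318). The others were mt-Tm (−0.96), mt-Tp (−0.64) and mt-Tq (−0.88), with only 12 to 43 counts per library for mt-Tm and 7 to 36 for mt-Tq. Whether the reads on tRNA genes came from mature tRNAs was not tested. Without Vehicle 1 and Vehicle 4, 1 tRNA gene was called lower, where 15.9% of all tested genes were.

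Nuclear genes of the same complexes were lower as well. Of 72 nuclear genes of complexes I, III, IV and the ATP synthase, 60 fell and 0 rose in edgeR. Over all tested genes 17.6% were called lower and 15.4% higher. The median log2 fold change of the 72 was −0.64, and 0 of them rose at an unadjusted p under 0.05, with DESeq2 or with limma-voom. All 11 complex IV genes fell, as did 31 of 36 of complex I, 7 of 9 of complex III and 11 of 16 of the ATP synthase. Cox7a2 (171 ± 33.2 to 82.5 ± 5.07 CPM) and Uqcrh (187 ± 29.9 to 94.1 ± 3.07 CPM) fell by 1.06 ± 0.12 and by 0.99 ± 0.11 on the log2 scale (edgeR adjusted p = 5.55e-05 and 3.94e-05). Complex II, which has no mitochondrially encoded subunit, had 3 of 4 genes lower, led by Sdhd (−0.83 ± 0.11). Its highest log2 fold change was 0.23, and 1 gene was higher at an unadjusted edgeR p under 0.05, with 0 called higher by DESeq2 or limma-voom. Without Vehicle 1 and Vehicle 4, 48 of the 72 nuclear genes were called lower, 7 of the 11 complex IV genes among them. In that fit 15.9% of all tested genes were called lower.

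The ratio of member mRNA counts to counts of those 72 nuclear genes was 3.28, 2.05, 2.28 and 3.25 in Vehicle 1 to 4 and 2.46, 2.64, 2.93 and 2.69 in TSA 1 to 4. Vehicle 1 and 4 lay above the TSA libraries and Vehicle 2 and 3 below them. The mean log2 difference was 0.0094, with a 97.1% interval of −0.42 to 0.52, and a two-sided exact permutation test gave p = 1.0, also after adjustment over the 2 ratios.

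Genes that act on the mitochondrial genome and its RNA were read as lists, beside the 17.6% of all tested genes called lower and 15.4% called higher. Among 17 genes of its transcription and replication 6 fell and 0 rose, with a median of −0.29. Mterf3, a mitochondrial transcription regulator, fell by 0.81 ± 0.10 on the log2 scale (56.6 ± 4.95 to 32.3 ± 2.62 CPM, edgeR adjusted p = 7.02e-05). The elongation factor gene Tefm fell by 0.90 ± 0.18 and Ssbp1, which binds single-stranded mitochondrial DNA, by 0.63 ± 0.12. Among 29 tested genes of mitochondrial RNA processing and stability 9 fell and 0 rose, with a median of −0.18, including Fastkd2, which is needed for mt-Rnr2 and the ribosome's large subunit (−0.85 ± 0.11), and the tRNA-end processing genes Hsd17b10 (−0.67 ± 0.09) and Trmt10c (−0.60 ± 0.11). In both lists 0 rose at an unadjusted p under 0.05, with DESeq2 or with limma-voom. Across all settings, left-out libraries included, 0 to 1 gene of each list rose.

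Of 13 regulators of mitochondrial biogenesis 2 rose and 1 fell, no more than the shares of all tested genes called higher (15.4%) and lower (17.6%). Pprc1, a PGC-1-related coactivator gene, rose by 0.40 ± 0.09 and Tfe3, a transcription factor gene of lysosomal and mitochondrial programmes, by 0.45 ± 0.11, while Gabpb1, a subunit gene of nuclear respiratory factor GABP, fell by 0.41 ± 0.10 on the log2 scale. Of 18 general mitochondrial protein genes 7 fell and 0 rose, among them Hspe1 (−1.15 ± 0.14), a chaperonin gene, Tomm22 (−0.68 ± 0.09), of protein import, and Slc25a4 (−0.48 ± 0.10), an ADP/ATP carrier gene. At an unadjusted p under 0.05, and with DESeq2 and limma-voom, 0 of these 18 rose too. Across all settings, left-out libraries included, 0 to 2 of them rose. Of 12 tested genes of the mitochondrial stress response none passed with edgeR, with 2 higher and 1 lower at an unadjusted p under 0.05, 1 higher with DESeq2 and 0 with limma-voom. Lonp1, a matrix protease gene, had a log2 fold change of 0.21 ± 0.08, Atf4, a stress transcription factor gene, −0.22 ± 0.09 and Shmt2, of mitochondrial one-carbon metabolism, 0.27 ± 0.11. Of 18 genes of mitophagy and apoptosis 3 rose and 7 fell, with log2 fold changes from −0.96 to 1.05 over the list. The 3 of smallest p were among the fallen, the mitophagy receptor genes Bnip3l (−0.96 ± 0.10) and Fundc1 (−0.81 ± 0.14) and the apoptosis gene Diablo (−0.42 ± 0.10). Without Vehicle 1 and Vehicle 4, 1 of these 18 rose and 5 fell. In that fit 2239 of 15595 tested genes were called higher and 2477 lower.

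Other marker sums were set beside the mitochondrial share, and their calls beside the 17.6% of all tested genes called lower and 15.4% called higher. Summed over 8 abundant nuclear noncoding RNAs, levels were 4664, 2137, 2512 and 4055 CPM across Vehicle 1 to 4 and 2724 to 2978 CPM across TSA, with 1 gene fallen (Rian, −0.92 ± 0.14) and 1 risen (Kcnq1ot1, 0.60 ± 0.22, edgeR adjusted p = 0.0487). No gene of this list was called higher with library totals alone, with lane as a covariate, or without Vehicle 2, Vehicle 4 or any single TSA library. Vehicle 1 and 4 were the highest libraries on this measure as on the mitochondrial share. They were also the lowest in the summed neuronal markers, at 6518 and 5996 CPM. Erythroid markers summed to 271, 202, 317 and 476 CPM across Vehicle 1 to 4 and to 149 to 181 CPM across TSA, with Vehicle 3 above Vehicle 1, and 2 of 9 fell, the globins Hbb-bs (−1.10 ± 0.23) and Hbb-bt (−1.22 ± 0.30). The part of these in the members' levels was not tested.

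Marker lists of other cells that the dissection could hold were read beside the 17.6% of all tested genes called lower. Ganglionic eminence markers summed to 964 to 1199 CPM in Vehicle and 505 to 759 CPM in TSA, with 8 of 10 fallen, among them Gsx2 (−2.18 ± 0.24), Dlx5 (−1.29 ± 0.19) and Dlx1 (−1.16 ± 0.12). The 2 that rose were Nkx2-1 (2.22 ± 0.45) and Lhx6 (0.51 ± 0.12), named after their values were seen. Microglial markers summed to 51.7 to 71.6 CPM in Vehicle and 42.0 to 55.3 CPM in TSA (3 of 10 fallen). Endothelial markers summed to 135 to 217 CPM in Vehicle and 140 to 176 CPM in TSA, a full overlap (2 of 9 fallen). Without Vehicle 1 and Vehicle 4, 6 endothelial markers fell, where 15.9% of all tested genes were called lower. Meningeal markers summed to 42.1 to 53.6 CPM in Vehicle and 29.1 to 33.2 CPM in TSA (3 of 7 fallen). No member of the microglial, endothelial, meningeal or erythroid lists rose in edgeR, at an unadjusted p under 0.05, with DESeq2 or with limma-voom. Their part in the members' levels was not tested.

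Among the nuclear genes whose log2 CPM followed the summed members most closely over the 8 libraries, of 12799 ranked, were Slc25a36, Pet100, Agbl3 and Pcbd2, with Pearson r of 0.989, 0.987, 0.983 and 0.972. Slc25a36 stood at 129, 101, 105 and 138 CPM across Vehicle 1 to 4 and at 97.5 to 102 CPM across TSA. Like the members, it was highest in Vehicle 4 and Vehicle 1, over a narrower range. Their r for deviations from the group means was 0.953 to 0.980. The points share libraries and scaling, and the genes were picked for their r.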

How the data were processed

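Raw read counts per Ensembl gene were deposited by the authors without normalization, 1 file per library, for 4 Vehicle and 4 TSA RNA libraries, per the labels. The submitters' processing notes name the mm10 build and SAMtools. Which aligner and counter were used, and how reads with several matches were treated, is not given in the sources used here. Special lines for reads without a gene sum to 0, so the assigned share is unknown. No molecular identifiers are described. H3K9ac peak lists and inputs were not used here.

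Counts of 15000 genes kept by filterByExpr were fitted with edgeR 4.0.16 (TMM scaling, robust quasi-likelihood test, TSA against Vehicle, no covariate) in R 4.3.3, with Benjamini-Hochberg adjustment over all tested genes and calls under 0.05. The SE is the size of the log2 fold change divided by the square root of F. The edgeR fit was also run on simulated counts. Those had independent genes and a single fixed spread, so they do not cover members that move together between libraries. Levels per kb use RefSeq gene lengths. Gene symbols matched 47224 of 47729 identifiers, and 308 of 312 listed symbols were found. DESeq2 1.42.0, limma-voom (limma 3.58.1), other scalings and filters, lane, a replicate term and left-out libraries were alternatives.

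The members and lists were chosen with earlier results of these data known. Besides the members, the naming rule took the mitochondrial genes that passed the filter, in each list the 3 genes of smallest p, and the 5 nuclear genes with the highest r. Some of these are summarised as counts only, and 1 is not reported here. No sequence of the members was at hand to print.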

Additional observations from a re-analysis of the deposited data

Results flagged for a closer look

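The TSA level of mt-Rnr1 had 1 library apart from the others. TSA 3 had 204 CPM against 177 to 181 CPM in TSA 1, 2 and 4, a gap of 0.850 of the group's range, above Dixon's 95% critical value for 4 libraries. Among 24 group values examined it was the 1 past that limit, which chance passes in about 1 of 20 groups.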

How the results depend on the processing

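The count of 6 members called lower was 6 to 8 under the other scalings, filters and tools, with lane as a covariate and with the replicate block (7), and 2 without Vehicle 1 and Vehicle 4. Leaving out each replicate in turn gave 2 to 8 called members. The rRNAs were called under every setting across all genes, and mt-Nd4 was called in 6 and mt-Nd5 in 3 of them. The log2 fold change of mt-Nd5 was 0.022 without Vehicle 1 and Vehicle 4. Within lane 2, a comparison added after seeing the data, the differences were 0.014 for mt-Nd1, 0.067 for mt-Nd2, 0.26 for mt-Nd4, 0.21 for mt-Nd5, 0.080 for mt-Co1 and 0.098 for mt-Cytb. The cause was not tested.

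The difference in the members' share of counts was −0.85 percentage points, and −0.85 to −0.89 with other numerators or denominators and −1.13 to −0.56 with each replicate left out. The rRNA to mRNA log2 difference was −0.46 to −0.35 with each replicate left out and −0.43 to −0.41 otherwise. That of member mRNAs to nuclear mRNAs was −0.116 to 0.111 with each replicate left out, turning below 0 without Vehicle 2 (−0.116), Vehicle 3 (−0.064) or TSA 3 (−0.035), and 0.11 with the mean of log2 counts. The 60 nuclear genes called lower were 48 to 61 under all settings. Library totals alone moved the median of all genes to −0.061.

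Deviations of same-numbered Vehicle and TSA libraries correlated at 0.088 to 0.123, and those of differently numbered libraries at −0.23 to 0.169. Not every library correlated best with its own number, and whether same-numbered samples share more than a number was not settled. With the replicate block, the paired log2 differences of the ratios were again −0.41 and 0.0094. With 4 pairs no sign-flip p can go below 0.125. Depth does not limit the counted members, but whether reads of the genes listed at 0 were dropped is unknown.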
